A study of Homo sapiens with 4 samples.

Results

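Survivin, the product of BIRC5, is both an inhibitor of apoptosis (IAP) protein and a subunit of the chromosomal passenger complex. This account follows BIRC5, 3 further subunit genes of that complex (AURKB, INCENP and CDCA8) and 3 other IAP genes (XIAP, BIRC2 and BIRC6), which make 7 of the 25343 genes listed in each expression table. BIRC5 was chosen by its measured ratios, being at least 2-fold lower in both MAOA knockdown libraries, its partners by their place in the complex, and the other IAP genes for contrast. All 7 symbols were found in both tables, and all 7 passed the filter of a mean of at least 1 CPM (scaled counts per 1e6 reads) in each.

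RNA sequencing covered 4 bulk libraries from 2 human prostate cancer lines, with 1 library per group. C4-2B ENZR, an enzalutamide-resistant line, was kept in 20 µM of that antiandrogen. For LNCaP, an androgen-responsive line, no enzalutamide is stated. Both lines grew in 10% fetal bovine serum. Lentivirus brought in a short hairpin RNA, under antibiotic selection: one aimed at coding sequence of MAOA, the gene of the mitochondrial enzyme monoamine oxidase A, or, in the control library of each line, a non-targeting one. The labels name the knockdown libraries differently in the lines and do not state whether they share a hairpin. No hairpin sequence was used here, so whether a hairpin can pair with BIRC5 mRNA was not tested. Both libraries of a line carry 1 lane number in the labels, a different one for each line, so line and lane cannot be told apart. No group has a replicate, and each interval given here covers counting error only.

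Pairs of values here give the control library first and the knockdown library second. Reads recovered over the listed genes summed to 23479051 and 23679869 in the C4-2B ENZR libraries and to 52550452 and 52012696 in those of LNCaP. MAOA was at 66.8% of its control level in the C4-2B ENZR knockdown and at 31.3% in that of LNCaP. Of the luminal prostate markers, HOXB13, FOLH1 and TMPRSS2 were at 75.6 CPM or more in all 4 libraries, while KLK3 rose in limma (adjusted p = 0.0260), from 3.72 to 6.34 CPM in C4-2B ENZR and from 2391 to 2716 in LNCaP, a call lost in edgeR on recomputed TMM factors (0.321), in DESeq2 (0.377), with a pseudocount of 5 (0.174) and with libraries brought to an equal sum (0.0857). Of 4 markers of other cells, the leukocyte gene PTPRC was at 0.202 or less and the endothelial gene PECAM1 at 1.66 or less, whereas VIM (32.7 to 107) and COL1A1 (44.4 to 60.9) were present throughout, and the 4 summed to 84.8 and 86.6 in C4-2B ENZR and to 132 and 170 in LNCaP. LNCaP ratios were shifted upwards as a whole: over genes with a mean of at least 10, their log2 median was 0.13, against -0.01 in C4-2B ENZR.

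The chromosomal passenger complex steers chromosome attachment and cytokinesis. Aurora kinase B, encoded by AURKB, is its enzyme; INCENP is the scaffold that binds and activates the kinase; survivin and borealin, the product of CDCA8, bring it to the inner centromere and later to the spindle midzone. Transcription of such mitotic genes peaks in G2 and M phase, and promoters of this class often carry CCAAT boxes and a cell cycle genes homology region (CHR) near the start of transcription. The other IAP genes encode proteins with the same zinc-binding BIR fold. XIAP blocks caspases directly, BIRC2 encodes cIAP1, a ubiquitin ligase of tumour necrosis factor signalling, and BIRC6 encodes a very large protein that ubiquitinates caspases and also acts at the midbody.

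Upstream sequences of the 3 partners are shown because these genes belong to the G2/M class and lay close together in both lines. They are RefSeq sequences on GRCh38.p14, the 160 bases before an annotated start: AURKB on chr17:8210226-8210385 (minus strand), INCENP on chr11:62123851-62124010 (plus strand) and CDCA8 on chr1:37692356-37692515 (plus strand). Capitals mark CCAAT boxes (CCAAT, or ATTGG on the other strand) and CHR words (TTTGAA or TTCGAA, either strand).
AURKB: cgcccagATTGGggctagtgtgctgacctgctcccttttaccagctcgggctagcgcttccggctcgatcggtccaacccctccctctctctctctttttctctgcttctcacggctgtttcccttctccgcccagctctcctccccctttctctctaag
INCENP: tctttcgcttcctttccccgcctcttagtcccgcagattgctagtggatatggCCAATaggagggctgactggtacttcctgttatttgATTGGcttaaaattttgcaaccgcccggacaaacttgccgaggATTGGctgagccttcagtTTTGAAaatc
CDCA8: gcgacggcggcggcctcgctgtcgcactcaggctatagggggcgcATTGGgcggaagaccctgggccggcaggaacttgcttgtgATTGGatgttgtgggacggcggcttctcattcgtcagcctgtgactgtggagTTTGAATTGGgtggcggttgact

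The RefSeq promoter table held 6 of the 7 genes, without BIRC5. In windows of 300 bases (250 before to 50 after a start), INCENP and CDCA8 each had 3 CCAAT boxes and 1 CHR word, which began 10 bases before the start in INCENP and 23 bases before it in CDCA8. In CDCA8 the CHR word shared 1 base with a CCAAT box. AURKB had 1 CCAAT box and no CHR word in the window of either of its 2 listed starts. No CCAAT box and no CHR word was in any listed window of XIAP, BIRC2 or BIRC6, where GC boxes (GGGCGG, either strand) were the searched words found. None of the 6 genes had an E2F word (TTTCCCGC, TTTGGCGC, TTTCGCGC or TTTGCCGC, either strand). Of all 35116 windows in the table, 34.6% held a CCAAT box, 16.4% a CHR word, 45% a GC box and 3.31% an E2F word. Of the 9601 tested genes with a listed window, 43.3%, 14.9%, 77.3% and 6.78% did. Among these 9601 genes, the 1429 with a CHR word had a median log2 ratio of -0.02 in C4-2B ENZR and 0.08 in LNCaP, against -0.00 and 0.12 for all 9601. A match of letters is a description of the window and does not show binding.

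BIRC5 was lower in both knockdown libraries. The C4-2B ENZR control held it at 175 CPM and the knockdown at 84.4 (4321 and 2075 reads), which is 48.3% of control. The LNCaP libraries had 104 and 26.6 (5874 and 1301 reads), 25.7% of control. The knockdown library was the lower in each line. The log2 ratio of reads, scaled as deposited, was -1.05 in C4-2B ENZR (95% counting interval -1.13 to -0.97) and -1.96 in LNCaP (-2.05 to -1.87). That scaling raised the LNCaP knockdown over control by log2 0.22, so the unscaled reads differ more than this ratio. With 1 CPM added to each level, the scale used for all log2 ratios unless reads are named, the values were -1.04 and -1.92. These are the values that chose the gene, so they are given as a description without a test. In bulk RNA, fewer mitotic cells and less BIRC5 RNA per cell cannot be told apart.

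Among genes with a mean of at least 1 CPM, 0.152% were at least 2-fold lower in C4-2B ENZR and 0.254% in LNCaP, while 0.29% and 0.58% were at least 2-fold higher, none of them among the 7. Of the 13114 genes that reached this mean in both tables, 0.0153% were 2-fold lower in each line, namely MDC1, a checkpoint mediator of DNA damage (-1.20 and -1.57), and BIRC5. The gene just outside the rule was CBFB, a subunit of the core-binding transcription factor (-0.87 and -0.88). Counted from the lowest ratio, BIRC5 was number 19 in C4-2B ENZR and number 3 in LNCaP. Whether its ratio differed between the lines was not tested, since the 4 libraries leave no spread for such a test. BIRC5 shared no exon bases with another gene in GENCODE release 29. Its principal transcript shared no 50-base word with a transcript of another gene, 50 bases being the read length of these libraries. Words found only in its other transcripts were not searched.

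**Figure D1:**
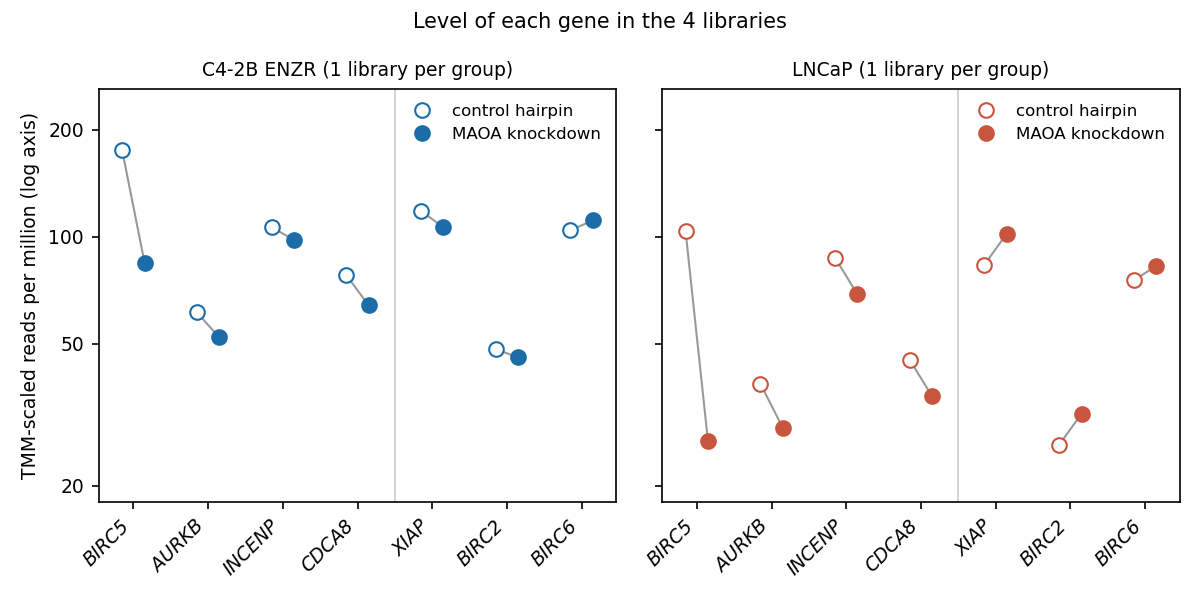
TMM-scaled CPM (log axis) of the 7 genes in the control library (open circles) and the MAOA knockdown library (filled circles) of C4-2B ENZR and LNCaP, 1 library per group; grey lines join the libraries of a line. BIRC5 goes from 175 to 84.4 and from 104 to 26.6, while the other 6 genes keep to a narrower range in each line.

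The 3 partner genes were slightly lower in each knockdown library, and none passed the test over both lines. AURKB had 61.3 and 52.1 CPM (log2 ratio -0.23) in C4-2B ENZR, and LNCaP had 38.7 and 29.1 (-0.40). INCENP was at 106 and 98.0 and at 87.4 and 68.9 (-0.12 and -0.34). CDCA8 was at 78.0 and 64.1 and at 45.1 and 35.6 (-0.28 and -0.33). All 6 differences pointed down. The counting interval of the ratio of reads, scaled as deposited, lay below 0 for the 3 genes in both lines. The same held for 9.52% of the 13114 genes (21.7% of genes in C4-2B ENZR alone and 19.2% in LNCaP alone).

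The test over both lines was limma on the within-line ratios, with Benjamini-Hochberg adjustment over 13114 genes, of which 1.49% fell and 4.22% rose. The partners had a mean log2 ratio of -0.32 for AURKB (SE 0.13, limma adjusted p = 0.135), -0.23 for INCENP (SE 0.12, adjusted p = 0.303) and -0.31 for CDCA8 (SE 0.13, adjusted p = 0.140). The SE is pooled over genes and hardly uses the spread between the lines. Centred on the median ratio of each line, a scaling under which 4.14% of genes fell and 4.41% rose, AURKB (adjusted p = 0.0236) and CDCA8 (0.0209) passed limma and INCENP (0.0632) did not. With libraries brought to an equal sum all 3 passed (0.0205, 0.0169 and 0.0453 for AURKB, CDCA8 and INCENP). In edgeR on recomputed TMM factors, which called 0.976% lower and 1.33% higher, none of the 3 passed, with adjusted p = 0.0884 for AURKB, 0.157 for INCENP and 0.0763 for CDCA8.

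Set against its partners, BIRC5 lost ground in both lines, a measure that does not depend on how libraries were scaled. There were 2.85 BIRC5 reads per AURKB read in the C4-2B ENZR control and 1.62 in its knockdown, a log2 change of -0.82 (counting interval -0.95 to -0.68). In LNCaP the same ratio went from 2.67 to 0.916, a change of -1.55 (-1.68 to -1.42). Against INCENP the changes were -0.93 (-1.04 to -0.82) and -1.62 (-1.72 to -1.51), and against CDCA8 -0.77 (-0.89 to -0.64) and -1.62 (-1.74 to -1.49). These changes carry the ratio that chose BIRC5 and are a description.

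The partners kept close proportions to each other. AURKB reads per CDCA8 read were 0.786 and 0.813 in C4-2B ENZR, a log2 change of 0.05 (-0.10 to 0.19), and 0.858 and 0.816 in LNCaP, a change of -0.07 (-0.20 to 0.06). AURKB against INCENP changed by -0.12 (-0.25 to 0.02) and -0.07 (-0.19 to 0.05). INCENP against CDCA8 changed by 0.17 in C4-2B ENZR (0.04 to 0.29), the 1 of 6 such intervals that did not include 0, and by -0.00 in LNCaP (-0.11 to 0.11). In the plane of both ratios the partners lay within 0.0938 log2 units of their mean, a circle that held 214 of 10714 genes with a mean of at least 5, and BIRC5 lay 1.77 from it.

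**Figure D2:**
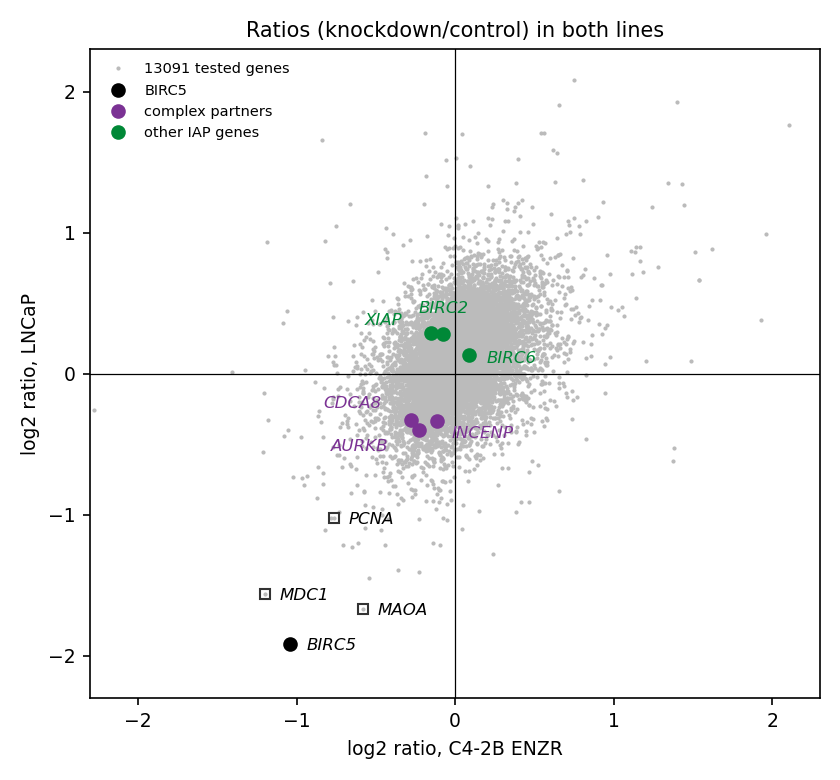
Log2 ratio of knockdown to control in C4-2B ENZR (x axis) and LNCaP (y axis), pseudocount 1, for 13091 tested genes with an intact symbol (grey points; 3 lie outside the axes), with BIRC5 in black, its partners in purple, the other IAP genes in green and 3 further genes as squares. The partners sit together below 0 on both axes, and BIRC5 lies near MDC1 and MAOA.

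Levels of different genes can be compared per length of transcript. Per kilobase of the principal GENCODE transcript, BIRC5 was the highest of the 7 genes in both controls, at 66.4 CPM per kilobase in C4-2B ENZR and 39.4 in LNCaP, ahead of AURKB (50.0 and 31.6). In the knockdowns AURKB (42.5 and 23.7) stood above BIRC5 (32.1 and 10.1). In the LNCaP knockdown BIRC5 was number 5 of 7, below INCENP (18.6), CDCA8 (14.4) and XIAP (11.9) as well. BIRC6 was the lowest in all 4 libraries, at 4.81 to 7.07. With the union of annotated exons as the length, BIRC5 was again the highest in both controls, and number 3 and number 6 in the knockdowns of C4-2B ENZR and LNCaP. There is no spread over libraries by which to tell neighbours in these orders apart.

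The other IAP genes lay near their control levels, on either side of them. XIAP had 118 and 106 CPM (log2 ratio -0.15) in C4-2B ENZR, and LNCaP had 83.5 and 102 (0.29). BIRC2 was at 48.3 and 45.8 (-0.07) and at 26.0 and 31.8 (0.28). BIRC6 was at 104 and 111 (0.09) and at 75.5 and 82.8 (0.13). None passed limma over both lines, with adjusted p = 0.833 for XIAP (mean log2 ratio 0.07, SE 0.12), 0.747 for BIRC2 (0.10, SE 0.13) and 0.695 for BIRC6 (0.11, SE 0.12). None passed under any other scaling or tool tried. The counting interval of XIAP was below 0 in C4-2B ENZR and above 0 in LNCaP, as for 6.51% of genes; intervals on opposite sides in either order were found for 7.88%. BIRC2 in LNCaP and BIRC6 in both lines had intervals above 0 as deposited, as did 21.5% of genes in C4-2B ENZR and 49.1% in LNCaP. With libraries brought to an equal sum, the LNCaP log2 ratios were 0.088 for XIAP, 0.085 for BIRC2 and -0.067 for BIRC6. No counting interval was computed under that scaling.

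All tested genes had a median of 0.11 in LNCaP. Centred on the median ratio, the LNCaP values were 0.15 for XIAP, 0.15 for BIRC2 and -0.0029 for BIRC6, so that BIRC6 changed sign. Against XIAP, BIRC5 reads changed by -0.90 in C4-2B ENZR (-1.01 to -0.79) and -2.25 in LNCaP (-2.35 to -2.14). Of the 50-base words of the principal XIAP transcript, 4.98% occur in transcripts of other genes, above all in a pseudogene copy. A small part of XIAP reads can thus be misplaced. BIRC8, a gene related to XIAP, was at 0.0813 CPM or less in all libraries, under the 0.121 and 0.122 that 3 reads amount to in C4-2B ENZR, and at 0.0705 and 0 in LNCaP. BIRC2 and BIRC6 shared 0.274% and 0.0319% of their words, BIRC2 with its neighbouring relative BIRC3.

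**Figure D3:**
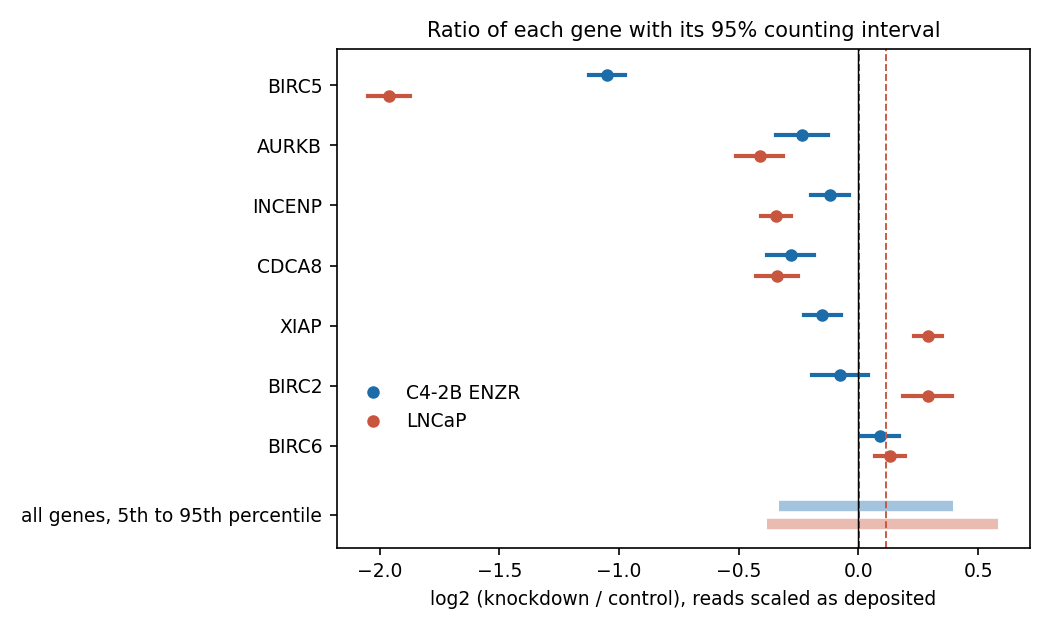
Log2 ratio of reads (knockdown over control, scaled as deposited) for the 7 genes in C4-2B ENZR (blue) and LNCaP (red); bars are 95% counting intervals, dashed lines the median of all genes with a mean of at least 1, and the pale bars at the bottom the 5th to 95th percentile of those genes (pseudocount 1). BIRC5 lies far below the pale bars in both lines, whereas AURKB in LNCaP is the 1 other value outside them.

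Genes that act with the complex or with IAP proteins were taken from lists drawn up by role. Earlier results of these data were known when the lists were chosen, so their counts are a description. Of 95 distinct genes tested, markers included, 7 fell and 3 rose in limma, against 1.49% and 4.22% of all tested genes. BIRC5 was chosen for its low ratios, and as a description none of the 95 had a lower one in either line. The lowest was PCNA, the replication clamp, with 183 and 108 CPM in the resistant line (-0.76) and 83.8 and 40.7 in LNCaP (-1.03).

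Of 10 genes that recruit or switch on the complex, 2 fell and none rose, and the list had median log2 ratios of -0.14 in C4-2B ENZR and -0.28 in LNCaP, against 0.00 and 0.11 over all tested genes. CCNB1, the mitotic cyclin, had 194 and 154 CPM in the resistant line and 144 and 76.7 in LNCaP (mean log2 ratio -0.61, limma adjusted p = 0.000176). PLK1, a mitotic kinase, was at 180 and 140 and at 117 and 64.5 (-0.61, limma adjusted p = 0.000170). Both kinases that write the histone marks by which the complex finds the centromere did not pass as deposited, though both did when ratios were centred, where 4 of the 10 genes fell. GSG2, which encodes haspin, was at 38.7 and 32.6 and at 18.3 and 12.6 (limma adjusted p = 0.0932, centred 0.0224). BUB1 was at 65.1 and 62.8 and at 56.2 and 37.5 (0.136, centred 0.0270). CDK1, the highest of the list by the mean of the 4 libraries, was at 329 and 321 and at 176 and 172 (limma adjusted p = 0.922).

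Of 10 Aurora B substrates and midzone partners, 2 fell and none rose, with list medians of -0.14 and -0.34. PRC1, which bundles midzone microtubules, was at 162 and 127 and at 123 and 87.8 CPM (mean log2 ratio -0.42, limma adjusted p = 0.0223). KIF20A, the kinesin that carries the complex to the midzone, was at 91.3 and 82.4 and at 93.3 and 54.6 (-0.45, limma adjusted p = 0.0110); edgeR on recomputed TMM factors gave 0.0790 and DESeq2 0.0855. STMN1, a microtubule-destabilizing protein gene and the most abundant of this list, was at 193 and 183 and at 142 and 130 and did not pass (limma adjusted p = 0.738). AURKA, which encodes the related Aurora A kinase, was at 90.5 and 76.0 and at 50.8 and 35.5 and was the 1 of 3 tested genes of its list that passed (-0.38, limma adjusted p = 0.0496, against 0.0620 in edgeR and 0.105 in DESeq2). TPX2, its activator, was at 269 and 236 and at 134 and 105 (limma adjusted p = 0.217). Another 10 genes encode phosphatases that oppose Aurora B, or subunits and regulators of such phosphatases. None of them passed (1 when ratios were centred), with medians of -0.04 and 0.13. The most abundant, PPP1CC, was at 467 and 495 and at 208 and 261.

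Among regulators of G2/M transcription, none of 10 activators passed limma, with medians of -0.16 and -0.14. MYBL2, the B-Myb gene and the highest of them by the mean of the 4 libraries, had 313 and 283 CPM in the resistant line and 216 and 156 in LNCaP (limma adjusted p = 0.167). FOXM1, another driver of mitotic gene transcription, was at 345 and 293 and at 160 and 114 (limma adjusted p = 0.0725), and 3 of the 10 fell when ratios were centred. Of 10 repressors 1 rose and none fell. This was CDKN1A, which encodes the cyclin-dependent kinase inhibitor p21, at 92.7 and 143 and at 147 and 443 (mean log2 ratio 1.10, limma adjusted p = 1.15e-12); DESeq2 gave an adjusted p of 0.191.

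Of 10 proliferation markers 3 fell in limma (PCNA, CCNB1 and MCM5), 8 when ratios were centred and 4 in edgeR. Over all tested genes, 1.49% fell in limma, 4.14% when ratios were centred and 0.976% in edgeR. Their summed level was 2033 and 1677 CPM in the resistant line and 1157 and 859 in LNCaP. MCM5, a subunit of the replicative helicase, was at 149 and 117 and at 79.0 and 50.8 (mean log2 ratio -0.49, limma adjusted p = 0.00415). MCM2, another subunit and the highest marker by the mean of the 4 libraries, was at 388 and 333 and at 194 and 136 (limma adjusted p = 0.0788). MKI67, the classical marker of cycling cells, was at 346 and 309 and at 185 and 144 (log2 ratios -0.16 and -0.36). The partners' ratios lay near that of MKI67. BIRC5, which was chosen for its low ratios, lay below all 10 markers in both lines, and this is only a description. The part of proliferation in the level of BIRC5 was not tested.

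Of the IAP genes outside the 7, BIRC3, which encodes cIAP2, rose from 5.26 to 8.50 CPM in C4-2B ENZR and from 17.4 to 39.2 in LNCaP (mean log2 ratio 0.87, limma adjusted p = 6.20e-06). NAIP, the higher of the tested pair by the mean of the 4 libraries, was at 28.5 and 22.5 and at 13.0 and 11.3 (limma adjusted p = 0.325), and BIRC7 had a level of 0.164 or less. None of the 3 tested genes for IAP antagonists or their regulators passed. AREL1, which encodes a ubiquitin ligase of IAP antagonists and was the most abundant of the 3, was at 78.7 and 72.7 and at 67.5 and 60.7. DIABLO, which encodes the mitochondrial protein that displaces caspases from IAPs, was at 67.0 and 63.9 and at 44.7 and 56.7. None of 7 caspase and apoptosome genes passed, with medians of -0.03 and 0.19. CYCS, which encodes cytochrome c and is the most abundant gene there, was at 387 and 370 and at 146 and 157. None of 7 tested signalling partners of cIAP1 and XIAP passed, against 1 when ratios were centred. TRAF3, an adaptor and the highest by the mean of the 4 libraries, was at 84.9 and 85.2 and at 93.6 and 88.9. RIPK1, a kinase ubiquitinated by cIAP1, was at 25.1 and 19.1 and at 20.1 and 14.4 (limma adjusted p = 0.0641). None of 5 tested genes for chaperones and turnover of survivin passed, against 1 when ratios were centred. HSP90AA1, which encodes an HSP90 chaperone, was at 4226 and 3356 and at 1498 and 1283 (limma adjusted p = 0.536).

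**Figure D4:**
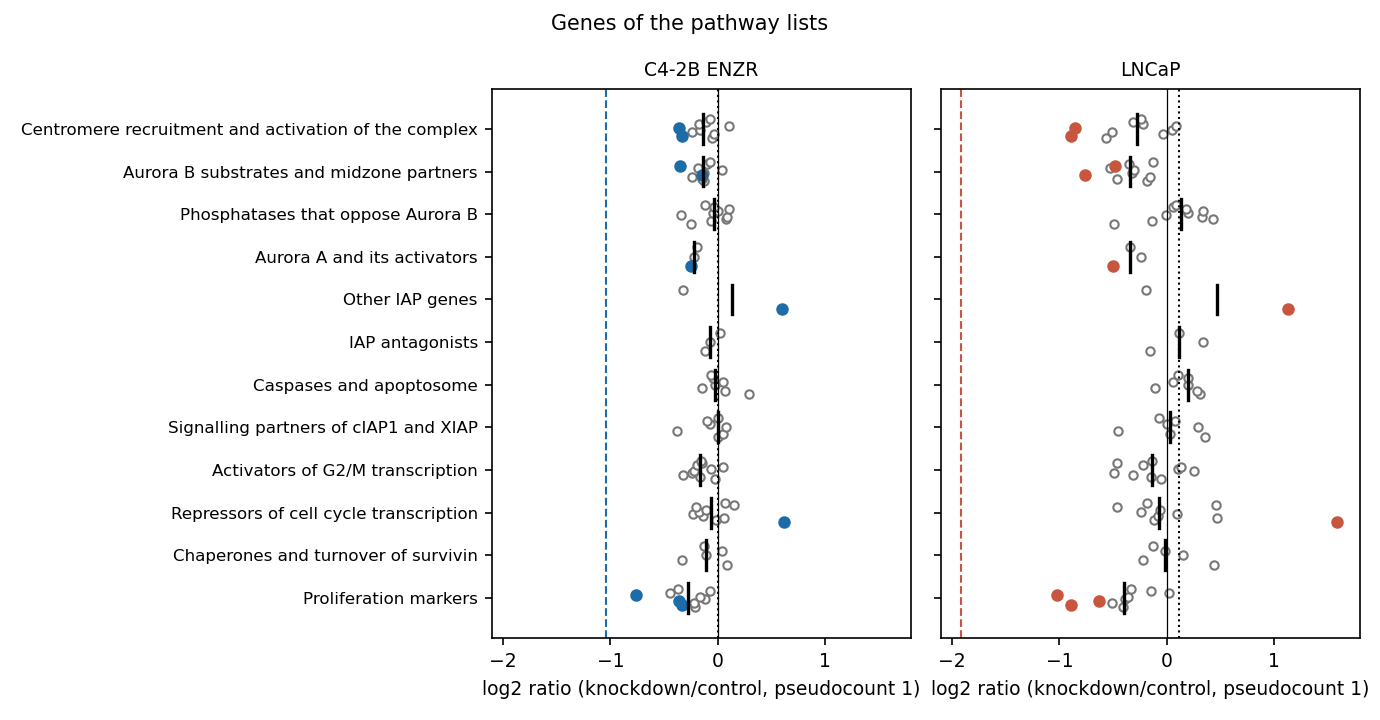
Log2 ratio (knockdown over control, pseudocount 1) of the tested genes of each list in C4-2B ENZR (left) and LNCaP (right); filled circles passed limma over both lines, open circles did not, black bars are list medians, the dotted line is the median of all tested genes and the dashed line is BIRC5. No list gene reaches the dashed line in either line, BIRC5 having been chosen for its low ratios.

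The genes whose pair of ratios lay nearest to that of BIRC5, by Euclidean distance over the 2 lines among 10714 genes, were MDC1 (distance 0.388), MAOA itself (0.525), S100A10, an annexin partner (0.779), FAM110B (0.929) and PCNA (0.937). MAOA had log2 ratios of -0.58 and -1.67, so that BIRC5 was the lower of the pair in each line. BIRC5 reads per MAOA read changed by -0.47 in C4-2B ENZR (-0.56 to -0.38) and by -0.28 in LNCaP (-0.38 to -0.19). Both genes were lower in LNCaP than in C4-2B ENZR relative to control, which 2 lines cannot test.

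Genes beside BIRC5 on chromosome 17, in the RefSeq order of GRCh38.p14, give the level of its surroundings. Of the 5 listed genes on either side 6 were tested and none passed limma. AFMID, the adjacent gene on one side, encodes arylformamidase and had 32.9 and 41.4 CPM in the resistant line and 34.7 and 41.9 in LNCaP (limma adjusted p = 0.182). TK1, the thymidine kinase gene next to it, was at 218 and 204 and at 172 and 137 (adjusted p = 0.368), and SYNGR2, a synaptogyrin gene, at 166 and 163 and at 438 and 437. TMEM235, the adjacent gene on the other side, had 0 reads in 3 libraries and 1 in the LNCaP knockdown.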

How the data were processed

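Per the submitters' processing notes, Bowtie2 2.1.0, RSEM 1.2.15, edgeR and hg19 were used, with annotation, filters and strand setting not given in the sources used here. Each line has 1 table that the authors deposited, scaled separately by TMM (trimmed mean of M-values): the C4-2B ENZR values are deposited CPM, and the LNCaP values were read as a deposited signal on that scale, since a column sums to 1064500. Divided by what 1 read is worth, 100% of values were whole to within 0.01 read, so reads were recovered. At these depths 3 reads equal 0.121, 0.122, 0.0529 and 0.0614 CPM. The deposited scaling raised the LNCaP knockdown over control by log2 0.22, recomputed TMM by 0.10.

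Ratios were log2((knockdown + 1)/(control + 1)) within a table. Counting intervals are exact conditional (Clopper-Pearson, 95%), and those of a single gene are on reads scaled as deposited. Genes with a mean of at least 1 in both tables (13114) were tested with limma 3.58.1 (R 4.3.3; trended prior with 276 degrees of freedom, 1 residual), Benjamini-Hochberg at 0.05; edgeR 4.0.16 and DESeq2 1.42.0 with line as a term were alternatives, as were other pseudocounts, filters and scalings. On simulated counts limma recovered 85.0% of genes changed 1.5-fold and 100% of those changed 2-fold (13112 genes, with 12 of the unchanged ones called). These values describe the simulated counts alone, and how many changed genes limma recovers or miscalls in the 4 libraries was not tested. Nothing in the labels shows separate cultures within a group. Members and lists were chosen with earlier results of these data known. Named genes are the 7 members, MAOA, BIRC8, up to 4 genes per list that passed limma, each list's most abundant gene (by the mean of the 4 libraries), the 5 nearest patterns and the neighbours of BIRC5; GSG2, BUB1, FOXM1, MKI67, DIABLO, RIPK1, BIRC7 and the marker genes that did not pass were added after their values were seen. A few list genes are not reported here.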

Additional observations from a re-analysis of the deposited data

Results flagged for a closer look

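Of 109 genes of the lists and members, 8 had counting intervals, scaled as deposited, on opposite sides of 0 in the 2 lines. That share is close to the 7.88% of the 13114 tested genes, and 5 of the 8 are given here. XIAP was lower in the C4-2B ENZR knockdown (log2 ratio -0.15) and higher in that of LNCaP (0.29). The same direction held for CYCS (-0.064 and 0.11), HSP90AB1 (-0.11 and 0.15), PPP2R5E (-0.12 and 0.090) and VIM (-0.23 and 0.48). LNCaP ratios as a whole had a log2 median of 0.13 over genes with a mean of at least 10. CYCS and PPP2R5E lay below that median in LNCaP, HSP90AB1 just above it, and XIAP and VIM further above. With 1 library per group the difference between the lines was not tested for any of these genes.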

How the results depend on the processing

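The log2 ratio of BIRC5 in LNCaP was -1.78 with a pseudocount of 5, -2.05 centred and -2.12 with libraries brought to an equal sum (rescaled), and in C4-2B ENZR it stayed within counting error under these choices. With a pseudocount of 5, BIRC5 in LNCaP was -1.46 relative to INCENP, -1.42 relative to AURKB and -1.48 relative to CDCA8. BIRC6 in LNCaP changed sign in both of these scalings (-0.0029 centred, -0.067 rescaled). Genes 2-fold lower and higher numbered 21 and 40 in C4-2B ENZR, but 45 and 90 with a pseudocount of 0.1 and 6 and 18 with 5. In LNCaP they numbered 35 and 80, but 76 and 163 with a pseudocount of 0.1, 6 and 40 with 5, 58 and 48 after centring, and 67 and 41 after rescaling. Over both lines 195 genes fell and 554 rose in limma, against 543 and 578 after centring, 653 and 351 after rescaling, 128 and 175 in edgeR with recomputed TMM, 90 and 131 in DESeq2 (no adjusted p for 3560 genes) and 205 and 584 in edgeR with the deposited scaling, a fit added after seeing the data. Without a filter on low values limma called 0 genes up and 0 down (1867 at an unadjusted p under 0.05); the cause was not tested. List genes that fell numbered 7, but 23 after centring, 26 after rescaling and 0 without a filter, and those that rose 3, but 1 in DESeq2 and 0 without a filter. No paired analysis by replicate number was possible because the labels give none and each group has 1 library, so that none could be left out either; pairing by line is part of limma's ratios and a term in edgeR and DESeq2. Depth limits genes near 3 reads, such as BIRC7, BIRC8 and TMEM235.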
